A study of Mus musculus with 6 samples.

Results

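The glucose, amino acid and nucleoside transporters are membrane proteins of the solute carrier superfamily, whose gene symbols begin with Slc. They were taken here as every gene with a probe set naming it alone and a symbol of the solute carrier families 1, 2, 3, 5, 6, 7, 16, 27, 28, 29, 36, 38 or 43. This gave 115 genes of 22180 tested. Of these, 111 encode transporters, their subunits or close relatives, and 4 are loci that only carry a transporter's name (Slc2a4rg-ps, Slc36a1os, Slc6a19os and Slc7a6os). The 111 were sorted by substrate into 28 genes for neutral amino acids, 15 for glucose and other hexoses, 14 for monocarboxylates such as lactate, 11 chains of heteromeric amino acid transporters, 10 for neurotransmitters, taurine and creatine, 9 for nucleosides and nucleobases, 6 for cationic amino acids, 6 for fatty acids, 5 for glutamate and aspartate and 7 for other solutes.

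The RNA came from lung CD4 T cells of 2 groups of wild-type mice, one given house dust mite (HDM), the source of a common airway allergen, and one given PBS, the saline vehicle. Digested lung was sorted for CD45+ CD4+ cells that carried neither CD11b nor the Adgre1 product, both markers of myeloid cells. The gate holds CD4 T cell states mixed together from one organ. Marker genes of other cell types also gave signal, as described below. Fewer cells of a type cannot be told apart from less RNA per cell. Each group had 3 samples titled as biological replicates and numbered 1 to 3, with 1 Affymetrix whole-transcript array each. Age, doses, timing and the number of mice per sample are not stated in the labels, and p-values therefore describe only how these samples vary.

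Resting T cells take up little glucose and few amino acids, and activated T cells raise uptake as they grow and divide. Glucose enters mainly through facilitative carriers, lactate leaves through proton-coupled monocarboxylate carriers, and large neutral amino acids such as leucine enter through exchangers in which a light chain is bound to the heavy chain CD98. Nucleosides enter either along their gradient through equilibrative carriers or with sodium through concentrative ones, and both routes feed salvage of purines and pyrimidines.

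Of the 115 genes, 2 were higher and 2 lower in HDM than in PBS at an adjusted p below 0.05 (limma, Benjamini-Hochberg over all 22180 genes), which is 3.48% of them, while 3.95% of all genes passed (2.39% higher, 1.56% lower). The higher genes were Slc7a8, a light chain for neutral amino acids, and Slc6a8, the creatine transporter. The lower genes were Slc28a2b, a concentrative nucleoside transporter paralogue, and Slc16a5, a monocarboxylate transporter family member. With 1 array left out, the counts were 0 higher and 1 lower without replicate 1 or replicate 2 of either group, 1 and 3 without PBS replicate 3, and 4 and 6 without HDM replicate 3. Of all 22180 genes, 177 to 202 were higher and 41 to 70 lower without replicate 1 or replicate 2 of either group. The counts over all genes were 410 and 347 without PBS replicate 3 and 845 and 722 without HDM replicate 3, against 531 and 345 with no array left out. The median log2 difference over the 115 genes was 0.02, against −0.01 over all genes, and 63 of the 115 differences were positive and 52 negative. At an unadjusted p below 0.05 stood 19 of the 115 genes, or 16.5%, against 17.8% of all genes. Every substrate class held differences on both sides of 0, as the plot by substrate class shows. The 4 loci that only carry a transporter's name were all negative.

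**Figure D1:**
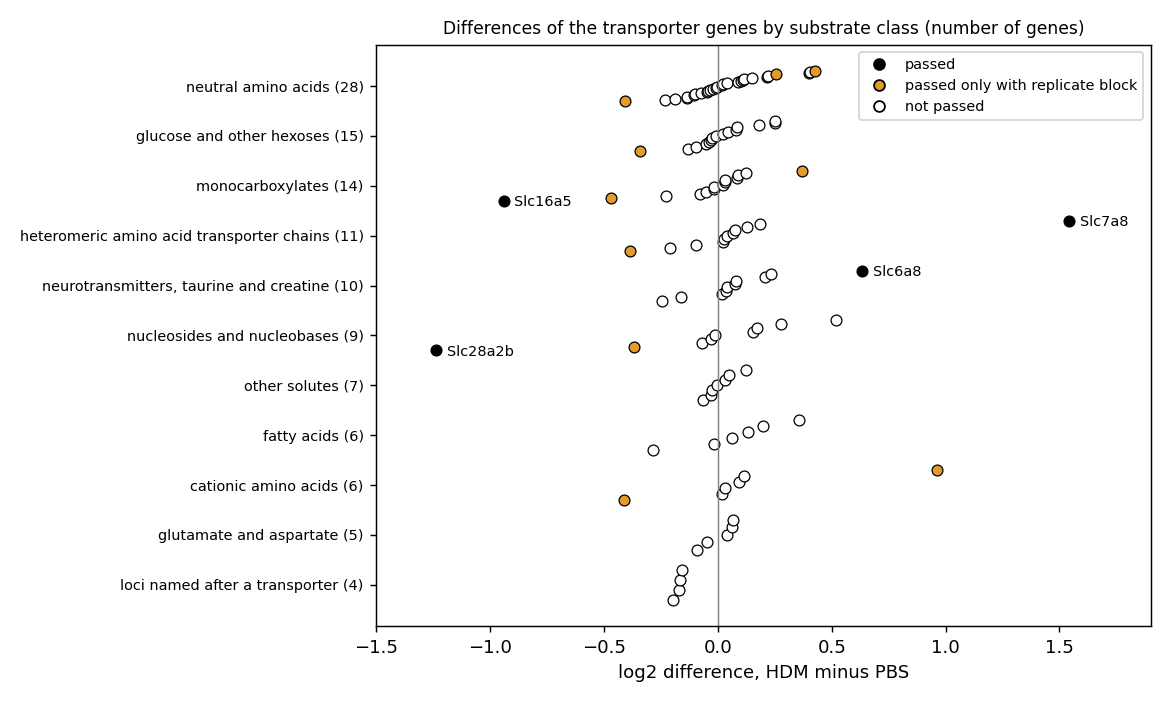
Each point is 1 transporter gene, placed by its log2 difference (HDM minus PBS, x axis) within its substrate class (y axis, with the number of genes). Black points passed the test, orange points passed only with the replicate number as a block, and white points did not pass. Slc7a8 at 1.54 and Slc28a2b at −1.24 lie farthest from 0.

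The promoter sequences below are shown because they stand before genes that passed, or before other genes described here and hold one of 3 motifs tied to growth or nutrient signalling. They are the 250 bases upstream of a RefSeq transcript start in the mouse build GRCm38.p6, written 5′ to 3′ on the gene's strand. RefSeq windows were found for 86 of the 115 genes, and for 2 of the 4 genes that passed. Capitals mark matches, on either strand, to CACGTG (the E-box bound by MYC and related factors), TGATGNAA (the core of the amino acid response element bound by ATF4 with C/EBP proteins) or TGANTCA (the AP-1 motif). No 2 of these motifs overlapped in the windows printed.
Slc7a8 promoter, chr14:54781887-54782136, minus strand: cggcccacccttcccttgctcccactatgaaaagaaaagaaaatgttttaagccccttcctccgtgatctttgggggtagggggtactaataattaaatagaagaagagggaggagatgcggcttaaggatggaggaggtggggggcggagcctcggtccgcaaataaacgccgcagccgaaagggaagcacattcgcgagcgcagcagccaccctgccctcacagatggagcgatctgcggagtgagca
Slc28a2b promoter, chr2:122484691-122484940, plus strand: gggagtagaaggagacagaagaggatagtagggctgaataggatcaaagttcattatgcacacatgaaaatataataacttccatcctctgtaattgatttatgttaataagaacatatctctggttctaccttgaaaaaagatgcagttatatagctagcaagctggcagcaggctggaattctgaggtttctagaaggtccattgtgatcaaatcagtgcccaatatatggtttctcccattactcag
Slc16a1 promoter, chr3:104638414-104638663, plus strand: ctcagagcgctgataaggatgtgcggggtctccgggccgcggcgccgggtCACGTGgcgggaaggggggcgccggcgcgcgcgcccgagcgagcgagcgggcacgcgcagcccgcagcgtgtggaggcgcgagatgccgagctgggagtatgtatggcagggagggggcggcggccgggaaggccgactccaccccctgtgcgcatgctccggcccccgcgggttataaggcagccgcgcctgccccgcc
Slc27a1 promoter, chr8:71570344-71570593, plus strand: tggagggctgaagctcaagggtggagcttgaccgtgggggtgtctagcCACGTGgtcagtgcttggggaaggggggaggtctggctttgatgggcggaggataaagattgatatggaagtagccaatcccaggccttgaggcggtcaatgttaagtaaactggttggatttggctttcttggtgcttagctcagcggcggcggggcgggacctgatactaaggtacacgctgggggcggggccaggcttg
Slc36a1 promoter, chr11:55204090-55204339, plus strand: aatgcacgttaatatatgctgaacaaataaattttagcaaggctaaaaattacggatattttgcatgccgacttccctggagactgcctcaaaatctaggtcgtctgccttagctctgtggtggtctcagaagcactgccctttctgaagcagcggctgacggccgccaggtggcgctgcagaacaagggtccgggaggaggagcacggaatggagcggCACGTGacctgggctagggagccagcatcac
Slc29a1 promoter, chr17:45595247-45595496, minus strand: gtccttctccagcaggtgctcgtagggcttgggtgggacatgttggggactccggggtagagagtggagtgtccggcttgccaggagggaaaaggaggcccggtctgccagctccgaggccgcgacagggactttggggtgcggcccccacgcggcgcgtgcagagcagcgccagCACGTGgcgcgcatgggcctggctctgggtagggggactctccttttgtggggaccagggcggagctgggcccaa
Slc7a1 promoter, chr5:148399905-148400154, minus strand: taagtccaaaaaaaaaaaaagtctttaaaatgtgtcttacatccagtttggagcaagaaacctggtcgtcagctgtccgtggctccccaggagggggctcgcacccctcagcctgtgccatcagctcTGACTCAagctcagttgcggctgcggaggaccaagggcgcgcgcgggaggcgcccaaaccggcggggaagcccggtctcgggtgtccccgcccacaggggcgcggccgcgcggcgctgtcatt
Slc7a11 promoter, chr3:50443614-50443863, minus strand: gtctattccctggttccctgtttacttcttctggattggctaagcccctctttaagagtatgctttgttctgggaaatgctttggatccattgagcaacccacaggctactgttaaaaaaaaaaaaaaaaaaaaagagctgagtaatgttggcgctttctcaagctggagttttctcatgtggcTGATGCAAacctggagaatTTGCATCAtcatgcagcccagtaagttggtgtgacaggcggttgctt
The windows of Slc7a8 and Slc28a2b held none of the 3 motifs. The E-box began 200 bases before the start in Slc16a1, 202 in Slc27a1, 31 in Slc36a1 and 75 in Slc29a1. The AP-1 motif began 123 bases before the start in Slc7a1, the arginine and lysine carrier, and Slc7a11, the cystine transporter chain, held the response element on both strands, 66 and 47 bases before the start. Among the members with a window, 14 genes (16.3%) had an E-box, against 6.86% of 27025 genes with a window, 3 (3.49%) had the response element, against 3.91%, and 10 (11.6%) had the AP-1 motif, against 7.82%. A match is a description of letters and not of binding.

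Among the heteromeric amino acid transporter chains, 1 of 11 genes rose (9.09%, against 2.39% of all genes) and 10 did not pass. The class median was 0.04. An unadjusted p below 0.05 was reached by 18.2% of the chains, against 17.8% of all genes. With the block 18.2% passed, against 12.0%. Slc7a8 encodes LAT2, a light chain that pairs with CD98 and exchanges neutral amino acids. Its signal was 9.26, 8.82 and 7.98 on the log2 scale in HDM replicates 1, 2 and 3, and 7.08, 7.13 and 7.23 in the PBS replicates. Every HDM value lay above every PBS value, and the HDM values spread far more than the PBS values. The difference was 2.91-fold (log2 1.54 ± 0.28 SE, n = 3 per group, limma adjusted p = 0.0266). With 1 array left out, the call held only in the fit without HDM replicate 3; adjusted p reached 0.121 in the others, and the difference ranged from 1.25 to 1.89. Of 15 macrophage marker genes, 4 (Chil3, Mmp12, Mrc1 and Retnla) also had their lowest HDM value in replicate 3, and 7, among them Adgre1, Cd68 and Csf1r, had their highest there. The part of these cells in the Slc7a8 difference was not tested.

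Slc3a2, the CD98 heavy chain itself, did not pass. It had signals of 11.69, 11.65 and 12.22 in HDM replicates 1, 2 and 3 and 11.52, 11.81 and 12.14 in the PBS replicates, with the arrays numbered 3 highest in both groups. The difference was 0.03 with a 95% interval of −0.41 to 0.47. Slc7a5, which encodes LAT1, the leucine exchanger that activated T cells are known to raise, had 9.94, 9.93 and 10.27 in HDM and 10.19, 10.44 and 10.68 in PBS. The groups overlapped, but within each number the HDM array was lower, by 0.25, 0.50 and 0.41. The difference of −0.39 ± 0.15 SE did not pass (limma adjusted p = 0.21) and passed with the replicate number as a block (adjusted p = 0.0173).

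Slc7a6, the light chain y+LAT2, differed by 0.02 (95% interval −0.24 to 0.29). Slc7a11 had 6.23, 5.93 and 6.08 in HDM and 5.02, 5.50 and 7.17 in PBS, so PBS replicate 3 stood above all other arrays. Its difference was 0.18 ± 0.47 SE, 0.82 without PBS replicate 3, where it passed (adjusted p = 0.0496), and −0.25 without PBS replicate 1. Another Slc7a11 probe set, of lower signal, differed by 0.03. The other 6 chains, among them Slc7a7 and the renal heavy chain Slc3a1, differed by between −0.21 and 0.13, with the lowest adjusted p at 0.335.

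**Figure D2:**
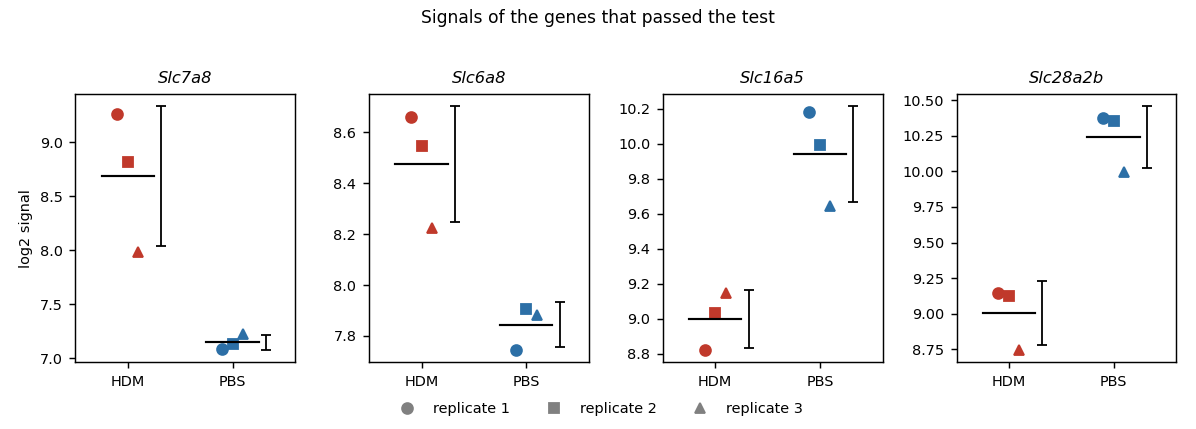
Log2 signal (y axis) of the 4 genes that passed, in the 3 HDM arrays (red) and the 3 PBS arrays (blue), with the marker shape giving the replicate number, the bar the group mean and the error bar 1 SD. The y axes do not start at 0 and differ between panels, and in each panel the groups do not overlap.

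Of the 10 genes for neurotransmitters, taurine and creatine, 1 rose (10%, against 2.39% of all genes) and 9 did not pass. An unadjusted p below 0.05 was reached by 10%, against 17.8% of all genes, and 10% passed with the block, against 12.0%. Slc6a8 carries creatine, the store of high-energy phosphate, into cells. It measured 8.66, 8.55 and 8.22 in HDM replicates 1, 2 and 3 and 7.74, 7.91 and 7.88 in the PBS replicates. The groups did not overlap, and HDM replicate 3 was nearest to PBS. The difference was 1.55-fold (0.63 ± 0.13 SE, limma adjusted p = 0.0399), and of the fits with 1 array left out the call held only in the one without HDM replicate 3 (adjusted p in the others up to 0.161). It was also lost with arrays centred on their medians (0.0536) and with adjustment over all probe sets (0.0648). Slc6a6, the taurine transporter, had 10.62, 10.56 and 10.47 in HDM and 10.37, 10.44 and 10.22 in PBS. Those groups were also apart, but the difference of 0.21 ± 0.09 SE did not pass (adjusted p = 0.282). The remaining 8 genes, which include the serotonin carrier Slc6a4 and the noradrenaline carrier Slc6a2, differed by between −0.24 and 0.23.

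Of 9 nucleoside and nucleobase carriers, 1 fell (11.1%, against 1.56% of all genes) and 8 did not pass. An unadjusted p below 0.05 was reached by 4 (44.4%, against 17.8% of all genes), and 2 were lower with the block (22.2%, against 6.01%). Slc28a2b belongs to the sodium-coupled concentrative family and lies on chromosome 2 beside Slc28a2, with only a pseudogene between them in GRCm38.p6. Its signal was 9.14, 9.12 and 8.74 in HDM replicates 1, 2 and 3 and 10.38, 10.36 and 9.99 in the PBS replicates. The groups were far apart, and the HDM array was lower by 1.23, 1.23 and 1.25 within the numbers 1, 2 and 3. The difference was −1.24 ± 0.15 SE, a signal 2.36-fold lower in HDM (limma adjusted p = 0.00608), and it kept its call without any 1 array (adjusted p of up to 0.0433).

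Slc28a2, the concentrative carrier CNT2 for purine nucleosides and uridine, had 9.85, 9.71 and 9.63 in HDM and 10.20, 10.31 and 9.80 in PBS. The groups overlapped and the difference of −0.37 ± 0.14 SE did not pass (adjusted p = 0.216, and 0.0436 with the replicate block). As close paralogues, the genes may share probe signal, so how the difference divides between them is uncertain. Among the equilibrative carriers, Slc29a1, which encodes ENT1, had 9.13, 9.24 and 9.01 in HDM and 8.82, 8.90 and 8.82 in PBS. These groups did not overlap, yet the difference of 0.28 ± 0.10 SE missed the threshold (adjusted p = 0.17, and 0.0563 with the block). Another Slc29a1 probe set, of lower signal, differed by 0.13. Slc43a3, a purine nucleobase carrier, had 9.48, 9.59 and 9.57 in HDM and 8.48, 9.21 and 9.41 in PBS, a difference of 0.52 ± 0.22 SE (adjusted p = 0.266). Without PBS replicate 1, the lowest array, the difference was 0.24. The remaining 5 genes differed by between −0.07 and 0.17.

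Of 14 monocarboxylate carriers, 1 fell (7.14%, against 1.56% of all genes) and 13 did not pass. An unadjusted p below 0.05 was reached by 2 (14.3%, against 17.8% of all genes). With the block 1 was higher and 2 lower (21.4%, against 12.0%). Slc16a5 encodes a family member whose natural substrates are poorly known. It had 8.82, 9.03 and 9.15 in HDM replicates 1, 2 and 3 and 10.19, 9.996 and 9.64 in the PBS replicates. All HDM values lay below all PBS values, and the gap was widest between the arrays numbered 1 and narrowest between those numbered 3. The difference was −0.94 ± 0.15 SE, a signal 1.92-fold lower in HDM (limma adjusted p = 0.0176). Slc16a5 has another probe set, of lower signal, which differed by −0.30 and did not pass, and averaging both gave −0.62 (adjusted p = 0.126). The call was also lost without replicate 1 or replicate 2 of either group (adjusted p of up to 0.095).

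Slc16a1, the lactate carrier MCT1, had 9.48, 9.66 and 10.14 in HDM and 9.94, 10.43 and 10.32 in PBS. HDM was lower by 0.46, 0.77 and 0.18 within the numbers. The difference of −0.47 ± 0.19 SE did not pass (adjusted p = 0.243) and passed with the block (adjusted p = 0.0355). Slc16a3, the lactate exporter MCT4 of strongly glycolytic cells, differed by −0.02 with a 95% interval of −0.56 to 0.52. Slc16a6, which exports ketone bodies from the liver in zebrafish, had 9.23, 9.15 and 9.76 in HDM and 8.79, 8.85 and 9.39 in PBS, a difference of 0.37 ± 0.21 SE (adjusted p = 0.423, and 0.02 with the block). Without a block, it was 0.18 without HDM replicate 3 and 0.56 without PBS replicate 3. The other 10 carriers differed by between −0.23 and 0.12.

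None of the 15 hexose carriers passed with limma, and 1 had an unadjusted p below 0.05 (6.67%, against 17.8% of all genes). That gene was Slc2a1, the insulin-independent glucose carrier GLUT1, with 10.38, 10.26 and 10.63 in HDM replicates 1, 2 and 3 and 10.61, 10.84 and 10.85 in the PBS replicates. HDM was lower within each number, by 0.23, 0.57 and 0.22, although HDM replicate 3 exceeded PBS replicate 1. The difference was −0.34 ± 0.12 SE with a 95% interval of −0.61 to −0.07 (adjusted p = 0.171, and 0.0436 with the block). Another Slc2a1 probe set, of lower signal, differed by −0.03, and averaging both gave −0.19. Slc2a3, the high-affinity carrier GLUT3, had 9.12, 9.10 and 8.96 in HDM and 8.90, 8.98 and 8.54 in PBS. Its difference pointed the other way, at 0.25 ± 0.13 SE, and did not pass (adjusted p = 0.372, and 0.107 with the block). The other 13 genes, which include the sodium-coupled glucose carriers Slc5a1 and Slc5a2, differed by between −0.13 and 0.25.

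**Figure D3:**
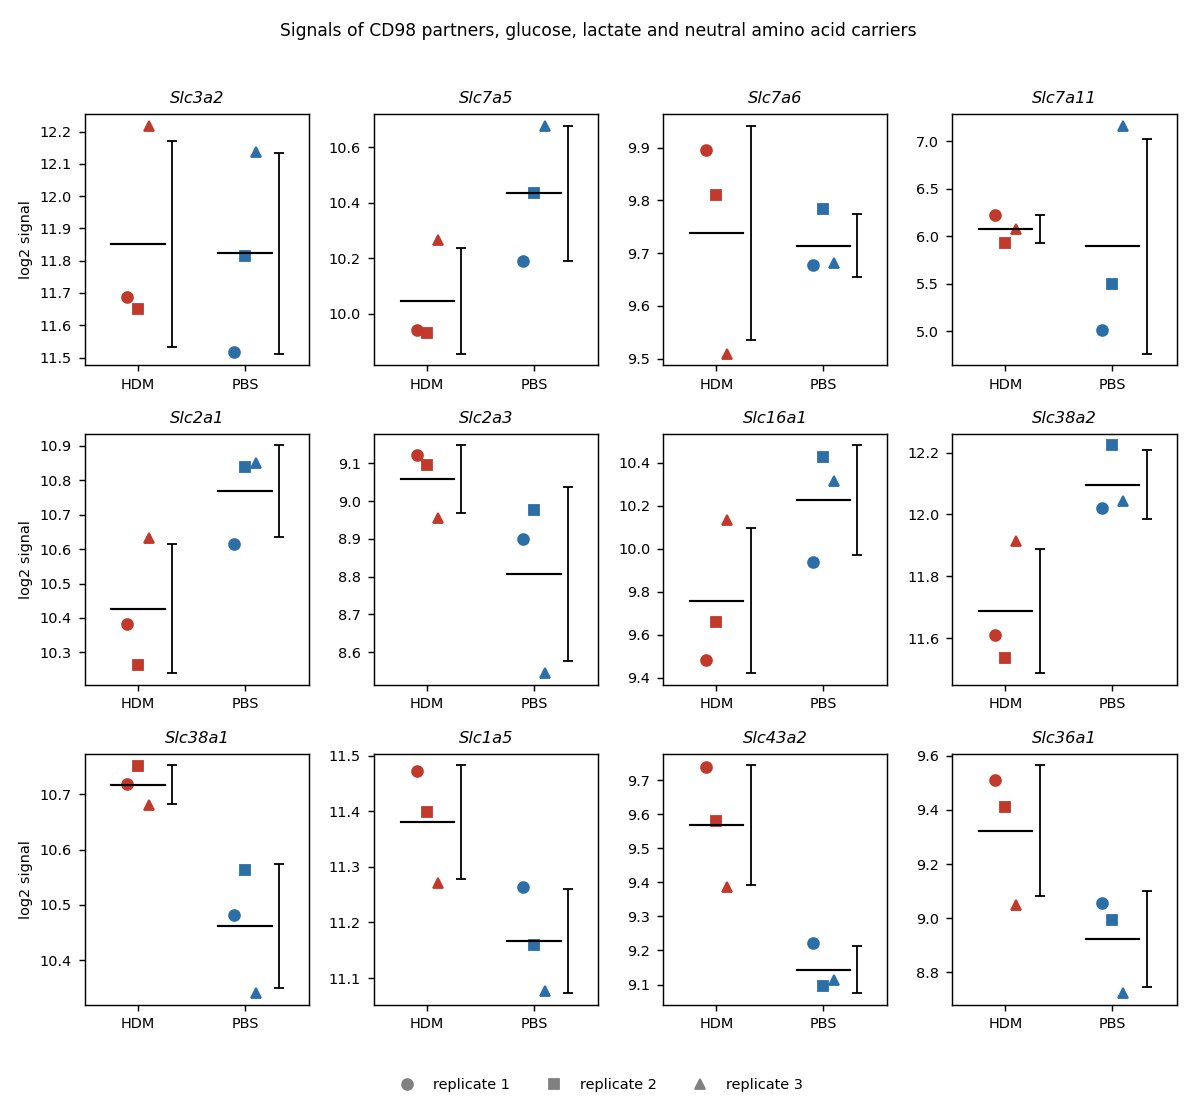
Log2 signal (y axis) of 12 carriers in the 3 HDM arrays (red) and the 3 PBS arrays (blue), with the marker shape giving the replicate number, the bar the group mean and the error bar 1 SD. The y axes do not start at 0 and differ between panels; Slc2a1, Slc7a5, Slc16a1 and Slc38a2 have lower HDM means, and Slc38a1, Slc1a5, Slc43a2 and Slc36a1 higher ones.

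Among 28 neutral amino acid carriers none passed with limma, 6 (21.4%, against 17.8% of all genes) had an unadjusted p below 0.05, and 4 were higher and 1 lower with the block (17.9%, against 12.0%). Slc38a2, the sodium-coupled carrier SNAT2 for glutamine and alanine, had 11.61, 11.53 and 11.91 in HDM and 12.02, 12.22 and 12.04 in PBS. The groups did not overlap, and the difference was −0.41 ± 0.11 SE (limma adjusted p = 0.0918, and 0.0382 with the block). Its relative Slc38a1, the glutamine carrier SNAT1, had 10.72, 10.75 and 10.68 in HDM and 10.48, 10.56 and 10.34 in PBS. These groups were apart in the opposite direction, by 0.26 ± 0.08 SE (adjusted p = 0.155, and 0.0428 with the block).

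Slc43a2, which encodes LAT4, a carrier of neutral amino acids that include the branched-chain ones, had 9.74, 9.58 and 9.39 in HDM and 9.22, 9.09 and 9.11 in PBS. The HDM values were all higher, and the difference was 0.42 ± 0.11 SE (adjusted p = 0.0839, and 0.0167 with the block). Slc36a1, a proton-coupled carrier of lysosomes and the cell surface, had 9.51, 9.41 and 9.05 in HDM and 9.06, 8.99 and 8.72 in PBS and differed by 0.40 ± 0.15 SE (adjusted p = 0.199, and 0.0158 with the block). Slc1a5, the glutamine exchanger ASCT2, had 11.47, 11.40 and 11.27 in HDM and 11.26, 11.16 and 11.08 in PBS, a difference of 0.21 ± 0.08 SE (adjusted p = 0.231, and 0.0452 with the block). Slc38a9, the lysosomal arginine sensor that signals to mTORC1, differed by −0.10 (95% interval −0.35 to 0.15). The remaining 22 differed by between −0.23 and 0.41, the highest being Slc1a4, the neutral amino acid carrier ASCT1 (adjusted p = 0.2).

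None of the 6 cationic amino acid genes passed with limma, and 1 had an unadjusted p below 0.05 (16.7%, against 17.8% of all genes). With the block, 1 was higher and 1 lower (33.3%, against 12.0% of all genes). Slc7a2, the arginine carrier CAT2, had 8.50, 7.64 and 7.30 in HDM and 7.08, 7.29 and 6.18 in PBS. The HDM values all exceeded the PBS values, HDM replicate 3 only just above PBS replicate 2, and both groups were widely spread. The difference was 0.96 ± 0.36 SE (adjusted p = 0.208, and 0.0196 with the block). Without a block, it was 0.62 without HDM replicate 1 and 0.63 without PBS replicate 3. Slc7a1, the widely expressed arginine and lysine carrier CAT1, had 9.06, 9.03 and 9.67 in HDM and 9.43, 9.68 and 9.89 in PBS. Its difference was −0.41 ± 0.19 SE (adjusted p = 0.316, and 0.0334 with the block). The other 4 differed by between 0.02 and 0.11.

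None of the 6 fatty acid carriers passed with limma or with the block, and 2 had an unadjusted p below 0.05 (33.3%, against 17.8% of all genes). Slc27a1, the long-chain fatty acid carrier FATP1, had 8.19, 7.94 and 8.18 in HDM and 7.79, 7.77 and 7.68 in PBS, a difference of 0.36 ± 0.10 SE (adjusted p = 0.117). Slc27a4, the related FATP4, had 8.29, 8.29 and 8.13 in HDM and 8.58, 8.41 and 8.57 in PBS, a difference of −0.28 ± 0.10 SE (adjusted p = 0.181). In both genes the groups did not overlap, and the directions were opposite. The 5 glutamate and aspartate carriers, led by Slc1a1 at −0.09 and Slc1a3 at 0.07, and the 7 genes for other solutes, led by the inositol carriers Slc5a11 at 0.12 and Slc2a13 at −0.07, gave 0 calls with limma, 0 with the block and 0 at an unadjusted p below 0.05. So did the 4 loci that only carry a transporter's name, which differed by between −0.20 (Slc2a4rg-ps) and −0.16, with Slc7a6os at −0.17.

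Arrays with the same number deviated together from their group means, with correlations across genes of 0.43, 0.17 and 0.53 for the numbers 1, 2 and 3. Between arrays of different numbers the correlations ran from −0.50 to 0.25, and HDM replicate 2 correlated more with PBS replicate 1, at 0.25, than with PBS replicate 2. With the replicate number as a block, 8 of the 115 genes were higher and 8 lower, which is 13.9%, against 12.0% of all genes (5.95% higher, 6.01% lower). The 4 genes that passed without the block were among the 16. The 12 added genes were Slc7a2, Slc43a2, Slc36a1, Slc16a6, Slc38a1 and Slc1a5 on the higher side and Slc16a1, Slc7a1, Slc38a2, Slc7a5, Slc28a2 and Slc2a1 on the lower side. Without a block, 6 of the 12 passed when HDM replicate 3 was left out, namely Slc43a2 (0.51, adjusted p = 0.0262), Slc36a1 (0.54, 0.0462), Slc38a2 (−0.52, 0.013), Slc7a1 (−0.62, 0.041), Slc16a1 (−0.66, 0.045) and Slc2a1 (−0.44, 0.0466), and Slc28a2 passed without PBS replicate 3 (−0.52, 0.0447). The block selects genes whose differences are alike within the numbers, so the single direction of each of the 16 genes in the plot of differences by number is no result. Over all members, 47 of the 115 genes (40.9%) differed in one direction within the 3 numbers, against 45.7% of all genes. HDM and PBS values did not overlap in 23 of the 115 genes, 14 with HDM above and 9 with HDM below, or 20%, against 22.6% of all genes (10.8% above, 11.8% below).

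**Figure D4:**
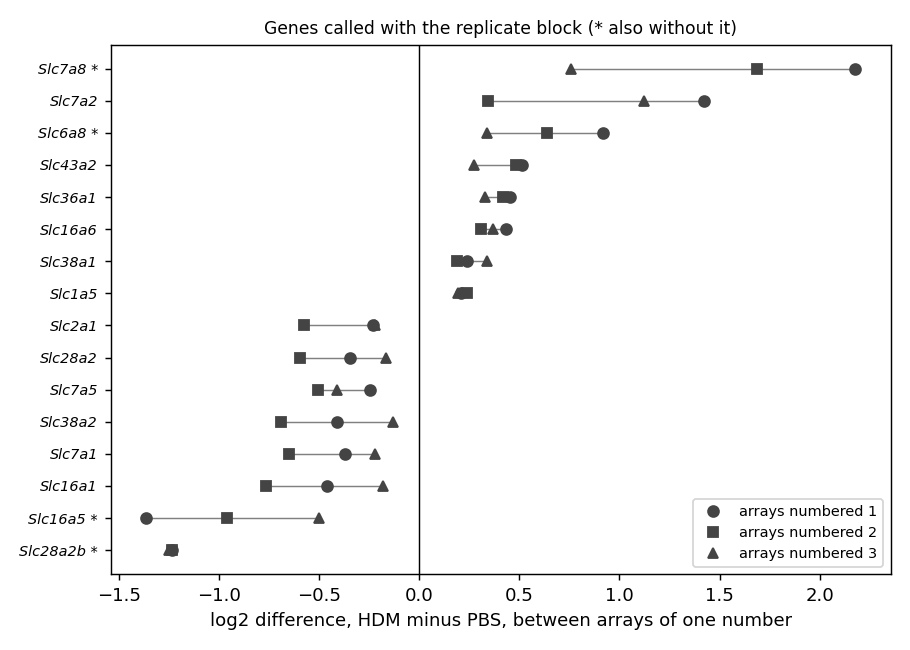
Log2 difference (HDM minus PBS, x axis) between the arrays of each replicate number for the 16 genes called with the replicate block (y axis), 1 marker shape per number. Stars mark the 4 genes that also passed without it; the Slc28a2b differences of −1.23, −1.23 and −1.25 nearly coincide, and those of Slc7a8 run from 0.76 to 2.18.

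Of the 115 genes, 51 reached the median signal of all genes, and all 16 genes called with the block were among them, as were the 19 genes with an unadjusted p below 0.05. A gene raised by HDM has a higher mean, so this split is not independent of the result. Among the genes above the median signal, 7.84% of the transporters and 7.34% of all genes passed, 31.4% and 21.6% passed with the block, and 37.3% and 28.5% had an unadjusted p below 0.05.

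Other genes of nutrient uptake were counted as 7 lists, which together hold 115 further genes. Of these 3 rose and 2 fell (4.35%, against 3.95% of all genes), 15 were higher and 12 lower with the block (23.5%, against 12.0%), and 37 had an unadjusted p below 0.05 (32.2%, against 17.8%). Most list genes, 98, reached the median signal, where 26.5% of them passed with the block, against 21.6% of all such genes, and 33.7% had an unadjusted p below 0.05, against 28.5%. Of 10 measured genes for transporter partners and trafficking, 1 fell, Nedd4l, a ubiquitin ligase that removes carriers and channels from the surface (−1.11 ± 0.13 SE, limma adjusted p = 0.00474). Of 33 genes for growth and nutrient signalling, 1 rose, Ddit4, an inhibitor of mTORC1 (1.12 ± 0.19 SE, adjusted p = 0.0186), and 1 fell, Rictor, the defining subunit of mTORC2 (−0.50 ± 0.08 SE, adjusted p = 0.0144). Of 16 amino acid response genes, 1 rose, Asns, asparagine synthetase (0.47 ± 0.10 SE, adjusted p = 0.041). Of 17 nucleoside salvage genes, 1 rose, Nt5e, the ectoenzyme CD73 that makes extracellular adenosine (0.99 ± 0.09 SE, adjusted p = 0.00245). The calls in these lists were in turn 10%, 6.06%, 6.25% and 5.88% of the genes, against 3.95% of all genes. An unadjusted p below 0.05 was reached by 40%, 24.2%, 31.25% and 35.3%, against 17.8%. With the block 30%, 21.2%, 12.5% and 29.4% passed, against 12.0%.

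The 19 enzymes that first use amino acids, the 8 of hexose and lactate entry and the 12 genes of fatty acid entry gave 0 calls with limma, with 5, 4 and 5 genes at an unadjusted p below 0.05. These are 26.3%, 50% and 41.7% of the lists, against 17.8% of all genes. With the block, 3 amino acid enzymes were higher, 2 hexose and lactate enzymes were higher and 2 lower, and 2 fatty acid genes were higher and 1 lower. In either direction these are 15.8%, 50% and 25% of the lists, against 12.0% of all genes. The medians of the 7 lists lay between −0.06 and 0.19. Txnip, Atf4 and Pdk1 were picked after their values were seen, and all were lower. Other list genes as near the threshold went both ways. Fabp5 (0.59, limma adjusted p = 0.0525), Akt1 (0.40, 0.0631), Castor1 (0.39, 0.0733) and Ldha (0.33, 0.0926) were higher, and Ldhb (−0.49, 0.0869) was lower. Txnip, which holds glucose carriers off the surface, had 11.64, 11.56 and 11.40 in HDM and 12.76, 12.53 and 11.91 in PBS (−0.87 ± 0.20 SE, adjusted p = 0.0543, and 0.00372 with the block). Atf4, the transcription factor of the amino acid response, had 8.88, 8.91 and 9.08 in HDM and 9.31, 9.47 and 9.38 in PBS (−0.44 ± 0.10 SE, adjusted p = 0.0525, and 0.0165 with the block). Pdk1, the kinase that limits pyruvate entry to mitochondria, differed by −0.75 (adjusted p = 0.0918, and 0.00468 with the block).

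Marker lists were read on the same arrays, each as the summed log2 signal of its genes divided by their number. Together the 9 lists hold 89 genes, of which 6 were higher and 4 lower (11.2%, against 3.95% of all genes). The median signal of all genes was 6.89. It was reached by 10 of 10 T cell, 11 of 15 macrophage, 10 of 12 endothelial, 9 of 12 epithelial and 6 of 9 B cell genes. It was also reached by 4 of 8 natural killer, 3 of 10 neutrophil, 9 of 11 cell division and 0 of 2 red cell genes. The T cell list (10 genes) lay at 11.88 to 11.99 in HDM and 11.80 to 11.82 in PBS, with 1 gene higher, Thy1, and 3 with the block. Of 15 macrophage genes, 3 were higher, Chil3, Mmp12 and Retnla (20%, against 2.39% of all genes). The block added Csf1r (26.7% higher, against 5.95% of all genes). The macrophage list lay at 8.19 to 8.44 in HDM and 7.58 to 7.68 in PBS. Its largest differences were those of Retnla (3.85), Mmp12 (2.59) and Chil3 (2.11). The other 12 differed by between −0.68 and 0.52 and did not pass. Differences were positive in 12 of the 15 and negative in 3, Plet1 (−0.68), Marco (−0.18) and Cd14 (−0.14). Slc7a2 is known to be induced in activated macrophages, and the part of such cells in its difference was not tested. Adgre1, whose product the gate excluded, had 7.50, 7.02 and 7.95 in HDM and 6.91, 6.96 and 7.44 in PBS and did not pass (0.39, adjusted p = 0.469).

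Of 8 natural killer cell genes, 3 were lower, with or without the block, Gzma, Klrd1 and Prf1. This is 37.5%, against 1.56% of all genes without the block and 6.01% with it. The other 5, among them Ncr1 (−0.13), Klrb1c (−0.12) and Eomes (−0.02), differed by between −0.28 and −0.02 and did not pass. The list lay at 7.11 to 7.75 in HDM and 7.73 to 8.16 in PBS. Of 12 endothelial genes 1 was lower, Pecam1, and 5 were lower with the block, Cdh5, Kdr, Pecam1, Ptprb and Tek (41.7%, against 6.01% of all genes). All 12 differences were negative, with a median of −0.43, and the list lay at 7.31 to 8.36 in HDM and 7.72 to 8.66 in PBS. Its mean was lower in HDM within the numbers 1, 2 and 3, by 0.41, 0.92 and 0.30, and the part of such cells in the transporter differences was not tested. Of 12 epithelial genes 1 was higher, Cdh1 (8.33%, against 2.39% of all genes). With the block 2 were higher and 1 lower (25%, against 12.0%), and the list lay at 7.70 to 8.28 in HDM and 7.54 to 8.17 in PBS. Mmp9 was the 1 of 10 neutrophil genes that was higher, also with the block (10%, against 2.39% and 5.95% of all genes). Differences were negative in 8 of the 10 neutrophil genes, with a list median of −0.08. Their list lay at 6.29 to 6.83 in HDM and 6.17 to 6.97 in PBS. The 9 B cell genes (6.92 to 8.17 in HDM and 7.13 to 7.63 in PBS), the 2 red cell genes (5.96 to 6.15 in HDM and 6.15 to 6.23 in PBS) and the 11 genes of cell division (8.05 to 8.74 in HDM and 7.74 to 8.28 in PBS) gave 0 calls with limma. With the block 0, 0 and 5 of them were higher (45.5% of the cell division genes, against 5.95% of all genes). At an unadjusted p below 0.05 stood 0, 0 and 2 (18.2% of the cell division genes, against 17.8% of all genes). All 11 cell division differences were positive, with a median of 0.34. Each also kept one direction within the 3 numbers (100%, against 45.7% of all genes). The mean of the cell division list was higher in HDM within the numbers 1, 2 and 3, by 0.30, 0.39 and 0.46. Arrays numbered 3 had the highest mean of the neutrophil, B cell, endothelial, natural killer and cell division lists within both groups, and their part in the transporter differences was not tested.

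**Figure D5:**
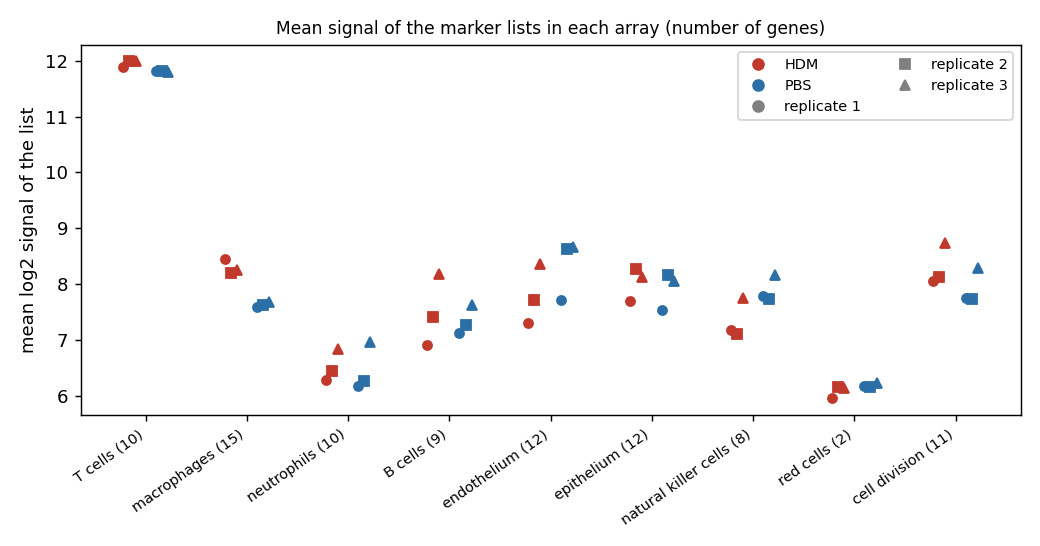
Mean log2 signal (y axis) of each marker list (x axis, with its number of measured genes) in the 3 HDM arrays (red) and the 3 PBS arrays (blue), with the marker shape giving the replicate number. The macrophage list lies at 8.19 to 8.44 in HDM and 7.58 to 7.68 in PBS, with its largest differences in Retnla, Mmp12 and Chil3. The endothelial list is lower in HDM within each replicate number, at 7.31 to 8.36 in HDM and 7.72 to 8.66 in PBS.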

How the data were processed

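RNA of sorted lung CD4 T cells was measured in 3 HDM and 3 PBS samples. The authors deposited log2 signals, 1 per probe set, computed with RMA according to the submitters' processing notes, which give no version. RMA makes array distributions nearly equal (medians 6.57 to 6.64), so a change in total RNA per cell cannot be seen. No detection call was given in the sources used here, and the number of arrays limits the precision.

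Of 33960 probe sets, 23521 had exactly 1 gene symbol in the platform annotation, 1814 named several genes and 8625 none. The single-symbol sets gave 22180 genes, each by its brightest probe set over the 6 arrays (1082 genes had more than 1). All 115 members matched RefSeq under the same symbol. No 2 arrays shared more than 5 identical values.

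HDM minus PBS was fitted across all genes with limma 3.58.1 in R 4.3.3 (lmFit, eBayes with an intensity trend, two-sided, Benjamini-Hochberg, threshold 0.05), with the replicate number as a block as an alternative. Same-numbered arrays correlated above 0.1 in their deviations from the group means, which comes from the data and not from the labels. SEs are limma's.

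The members, lists, classes, motifs and naming rule were chosen with earlier results of these data known. Named were all members that passed, those that passed only with the block, the 2 largest differences of each class without a call, and a fixed set of well-known carriers, 33 in all.

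Alternatives were filters on dim genes (25th percentile or median), repeated quantile normalization, median centring, other variance models, array weights, averaged, dimmest or all probe sets, a threshold of 0.1, and leaving out each array. A fit without both arrays numbered 3 was chosen after seeing the data.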

Additional observations from a re-analysis of the deposited data

How the results depend on the processing

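The count of 2 higher and 2 lower transporter genes became 8 and 8 with the replicate block. It was 1 higher with arrays centred on their medians or with adjustment over all probe sets, both through Slc6a8, and 1 lower with the mean of all probe sets of a gene or with the dimmest probe set of each gene, both through Slc16a5 (−0.62 and −0.30). Without both arrays numbered 3, a setting chosen after seeing the data, it was 6 higher and 8 lower. In that setting 1250 of all 22180 genes were higher and 1326 lower. Leaving out each array gave 0 to 4 higher and 1 to 6 lower genes, with the 0 for any array numbered 1 or 2 and the 4 and 6 without HDM replicate 3, and a median between −0.01 and 0.04. Over all 22180 genes these fits gave 177 to 845 higher and 41 to 722 lower, against 531 and 345 with no array left out. Slc43a2 passed with dim genes below the median left out and, with Slc38a2, under array weights. With the planned settings other than leaving out an array, no named gene changed direction. Leaving out 1 array turned genes with differences near 0: Slc3a2 ranged from −0.15 to 0.19, Slc7a11 from −0.25 to 0.82, Slc16a3 from −0.28 to 0.13, Slc7a6 from −0.054 to 0.14, Slc1a3 from −0.031 to 0.13 and Slc2a13 from −0.12 to 0.0049. The block changed no call other than adding 12 genes. The cause of these changes was not tested, apart from the fewer arrays or other probe sets that a setting itself uses. Dim genes limit what can be seen, since no detection call was used. Probe sets that name several genes were not used for any gene. Slc5a3, Slc5a10 and Slc6a9 had only such sets and so are not among the members. Slc16a3 and Slc29a3 each had a brighter such set, shared with Csnk1d (signal 9.99) and Gm15466 (10.41). These sets differed by −0.20 and −0.03, against −0.02 and 0.15 for the sets used.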
